A study of Homo sapiens with 12 samples.

Results

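NFE2L2, the gene of the transcription factor NRF2, and 7 of its target genes were followed in human adipocytes with knockdown (KD) of the long noncoding RNA linc-ADAIN. The 8 genes, NFE2L2, NQO1, GCLM, GCLC, TXNRD1, SRXN1, OSGIN1 and HMOX1, were taken by symbol from a table of 28901 named genes. The selection rule used no threshold on a measured value, but the genes were chosen with earlier results of these data known. The cells were ASC52telo hTERT, human adipose stromal cells immortalized with telomerase, and carried a lentiviral scramble shRNA or linc-ADAIN shRNA together with the green fluorescent protein ZsGreen. They were sorted for ZsGreen and differentiated to adipocytes until day 14. For each shRNA, 3 libraries came from cells without lipopolysaccharide (LPS) and 3 from cells given LPS at 100 ng/mL for 4 h, which made 4 groups and 12 libraries. Each arm rested on 1 shRNA, and the libraries of a group were triplicates of 1 experiment, so p-values measure the spread between these libraries only.

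NRF2 is the main activator of genes that protect cells from oxidants and electrophiles. In resting cells the adaptor KEAP1 brings it to a CUL3 ubiquitin ligase for degradation, and oxidants or electrophiles interrupt this step, after which NRF2 pairs with a small MAF protein on the antioxidant response element (ARE). The repressor BACH1 competes for the same element, with HMOX1 as its best known gene. In adipocytes these genes sit beside lipid synthesis, which draws on the same NADPH.

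The deposited values were estimated counts per gene, with totals of 28.4 to 53.8 M (units of 1e6) per library. Levels are in CPM, counts per 1e6 counts of a library, after the 12 libraries were scaled by the TMM method of edgeR. All 8 genes passed the filter of 10 counts over the libraries of each fit. All 8 of 8 inflammatory genes listed as a check of LPS rose with LPS in both shRNA arms, beside 5.9% of all genes in scramble and 5.32% in KD. This list was chosen with earlier results of these data known. The level of linc-ADAIN was not analysed here. Adipocyte markers were present in every group, and their summed level was lower in KD, at 690 to 1887 CPM against 3155 to 4370 CPM in scramble without LPS and at 579 to 1239 CPM against 3684 to 4313 CPM with LPS. In a bulk library, fewer cells of a type and less RNA per cell cannot be told apart.

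Short stretches around motif matches are shown because they are where the core of the ARE stands near the start of these genes. RefSeq promoter windows on GRCh38.p14, 250 bases before to 50 after a start, were found for 7 of the 8 genes, with more than 1 start for NFE2L2 and TXNRD1, and HMOX1 had no entry. The ARE core TGACNNNGC, searched on both strands, stood in the windows of GCLM and TXNRD1. Of 35116 windows of this length in the genome, 13.3% held it. The AP-1 motif TGANTCA, searched in the same way, stood in the window of OSGIN1 and in 7.71% of all windows. Its letters match on both strands wherever it stands, and the motifs can overlap where the ARE core begins TGACTCA. Each stretch is written in the direction of its gene with the match in capitals, and GCTTAGTCA, GCTCCGTCA and GCTTTGTCA are matches on the opposite strand.
GCLM, minus strand, chr1:93909446-93909474: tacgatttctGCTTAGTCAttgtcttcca
TXNRD1, plus strand, upstream start, chr12:104215670-104215698: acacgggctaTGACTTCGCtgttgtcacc
TXNRD1, plus strand, upstream start, chr12:104215761-104215789: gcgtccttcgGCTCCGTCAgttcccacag
TXNRD1, plus strand, downstream start, chr12:104286920-104286948: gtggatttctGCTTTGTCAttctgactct
OSGIN1, plus strand, AP-1 motif, chr16:83953133-83953159: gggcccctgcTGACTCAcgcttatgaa
The GCLM match began 34 bases before the start of transcription. The matches at the upstream start of TXNRD1 began 99 and 8 bases before it, and the match at the downstream start 102 bases before it. A match describes the letters in the window and is not evidence of binding. Bases outside the windows were not searched, so a window without a match does not show that a gene lacks the element.

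The regulator itself, NFE2L2, lies on chromosome 2 of GRCh38 from 177218667 to 177392756 on the minus strand. It was at 123, 121 and 121.5 CPM in the scramble libraries and at 132, 136 and 108 CPM in linc-ADAIN KD. With LPS it was at 189, 199.5 and 197 CPM in scramble and at 248, 222 and 249.9 CPM in KD. The groups without LPS overlapped, all LPS libraries lay above them, and the KD libraries with LPS were the highest.

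HMOX1, heme oxygenase 1, which opens the heme ring and releases iron, lies on chromosome 22 from 35380361 to 35394214 on the plus strand. It was at 451, 405 and 308 CPM in scramble and at 922, 829.9 and 885 CPM in KD. With LPS it was at 296.5, 291 and 287 CPM in scramble and at 513, 565 and 544 CPM in KD. The 4 groups did not overlap, in the order KD, KD with LPS, scramble and scramble with LPS.

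The next pair of genes belongs to the thioredoxin system, in which TXNRD1 reduces thioredoxin with NADPH and SRXN1, sulfiredoxin, repairs overoxidized peroxiredoxins. TXNRD1, on chromosome 12 from 104215779 to 104350307 on the plus strand, was at 1116, 1075 and 1253 CPM in scramble, at 603.5, 699 and 660.0 CPM in KD, at 969.9, 891 and 928 CPM in scramble with LPS, and at 726, 768 and 761 CPM in KD with LPS. Its 4 groups were apart, and both groups with LPS lay between the 2 groups without LPS. SRXN1, on chromosome 20 from 646615 to 653200 on the minus strand, was at 232, 233 and 271.5 CPM in scramble, at 167, 168 and 161 CPM in KD, at 323.5, 339.5 and 329 CPM in scramble with LPS, and at 200.4, 198 and 194 CPM in KD with LPS. These groups were apart as well, and every KD library, with or without LPS, lay below every scramble library.

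GCLM and GCLC encode the modifier and the catalytic subunit of glutamate-cysteine ligase, the rate-limiting enzyme of glutathione synthesis. GCLM, on chromosome 1 from 93885199 to 93909456 on the minus strand, was at 67.0, 47.3 and 59.9 CPM in scramble, at 47.2, 57.3 and 48.1 CPM in KD, at 112.5, 86.25 and 92.6 CPM in scramble with LPS, and at 84.8, 81.9 and 79.4 CPM in KD with LPS. All LPS libraries lay above all libraries without LPS. GCLC, on chromosome 6 from 53497341 to 53616970 on the minus strand, was at 25.4, 20.8 and 23.4 CPM in scramble, at 10.8, 21.5 and 19.45 CPM in KD, at 29.0, 25.1 and 28.3 CPM in scramble with LPS, and at 26.7, 31.1 and 32.0 CPM in KD with LPS. KD replicate 1 lay well below the other libraries, and the groups next to each other in level overlapped.

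NQO1, a quinone reductase and a standard readout of NRF2, lies on chromosome 16 from 69706996 to 69726668 on the minus strand. It was at 171, 161 and 148.5 CPM in scramble, at 119.9, 137 and 137.5 CPM in KD, at 173, 145 and 136 CPM in scramble with LPS, and at 154, 155 and 165 CPM in KD with LPS. NQO1 varied least of the 8 genes, with an SD of 0.13 for the group means of log2 CPM, and each group overlapped its neighbour in level. OSGIN1, an oxidative stress-induced growth inhibitor on the plus strand of the same chromosome from 83931311 to 83966332, was at 6.92, 8.32 and 7.19 CPM in scramble, at 4.05, 3.12 and 4.14 CPM in KD, at 9.49, 12.4 and 9.51 CPM in scramble with LPS, and at 7.25, 7.44 and 7.21 CPM in KD with LPS. KD without LPS was the lowest group, and KD with LPS overlapped scramble without LPS.

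**Figure D1:**
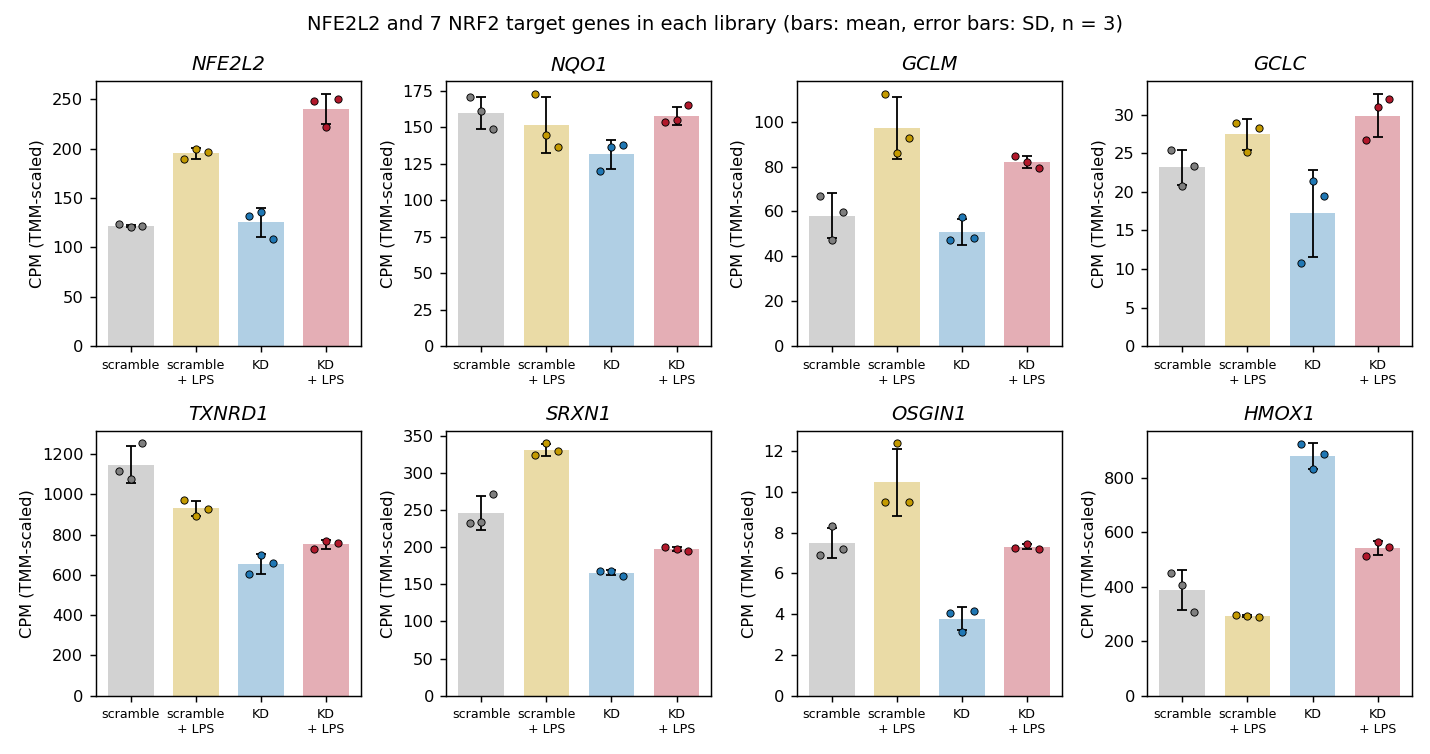
Scaled level in CPM (vertical axis, its own scale in each panel) of the 8 genes in the 4 groups. Each point is 1 library, bars are group means from 0 and error bars the SD with n = 3. The HMOX1 points of KD without LPS lie at 829.9 to 922 CPM, above all other groups, and the SRXN1 points of both KD groups lie below those of both scramble groups.

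Levels of different genes were compared per kilobase of the canonical GENCODE transcript, since it is not known which transcripts gave the reads. In scramble without LPS the order was TXNRD1 at 297 CPM per kb, HMOX1 at 249.7, SRXN1 at 97.1, NQO1 at 63.5, NFE2L2 at 49.8, GCLM at 11.9, GCLC at 6.13 and OSGIN1 at 3.89. In KD without LPS, HMOX1 stood first with 566 CPM per kb and TXNRD1 was next with 170.1. The summed level of the 8 genes was 2071 to 2193 CPM in scramble and 2007 to 2051 CPM in KD, with HMOX1 higher and TXNRD1 lower within it.

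The first comparison asked what KD of linc-ADAIN did without LPS. HMOX1 rose, and TXNRD1, SRXN1, OSGIN1 and NQO1 fell. HMOX1 went from 388 ± 73.1 to 879 ± 46.5 CPM (SD, n = 3 libraries each), a 2.27-fold rise. OSGIN1 went from 7.48 ± 0.74 to 3.77 ± 0.56 CPM, TXNRD1 from 1148 ± 93.4 to 654 ± 47.9 CPM and SRXN1 from 246 ± 22.6 to 166 ± 3.80 CPM. NFE2L2 itself was at 122 ± 1.19 and 125 ± 14.8 CPM.

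By edgeR's quasi-likelihood test with Benjamini-Hochberg adjustment over 16217 genes, 1 of the 8 genes was higher and 4 were lower in KD. Of all genes tested, 12.1% were higher and 15.1% were lower, and 7.77% were called with at least a 2-fold difference, as HMOX1 alone of the 8 genes was. Of the called genes 44.5% were higher, and 61.4% were with scaling by library size alone, which moved the median log2 fold change of all genes from 0.02 to 0.13, while the direction of each of the 5 genes named here was kept. The log2 fold change was 1.18 for HMOX1 (standard error 0.12, adjusted p = 1.7e-05). It was -0.81 for TXNRD1 (standard error 0.084, adjusted p = 2.2e-05), -0.56 for SRXN1 (standard error 0.081, adjusted p = 0.00029) and -0.99 for OSGIN1 (standard error 0.19, adjusted p = 0.0026). These 4 calls held under every alternative run. The NQO1 change of -0.28 (standard error 0.085) was smaller, with an adjusted p of 0.028. The genes that did not pass were NFE2L2 at 0.04 (adjusted p = 0.77), GCLM at -0.19 (adjusted p = 0.30) and GCLC at -0.42 (adjusted p = 0.15). The median over the 8 genes was -0.35, and over all genes 0.02.

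The call of NQO1 was lost without scramble replicate 1 (-0.23, adjusted p = 0.11), scramble replicate 2 (-0.28, adjusted p = 0.089) or KD replicate 1 (-0.22, adjusted p = 0.11), and with scaling by library size alone (-0.18, adjusted p = 0.17). Without KD replicate 1 the GCLC value was -0.18 (adjusted p = 0.34).

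With LPS in both arms, KD raised HMOX1 and NFE2L2 and lowered SRXN1, TXNRD1 and OSGIN1. HMOX1 was at 292 ± 4.58 CPM in scramble and 541 ± 26.0 CPM in KD, and SRXN1 at 331 ± 8.10 and 197 ± 3.13 CPM (SD, n = 3). NFE2L2 was at 195 ± 5.26 and 240.0 ± 15.7 CPM. Of the 8 genes, 2 were higher and 3 lower by edgeR's test, beside 12.7% of 15981 genes higher and 14.2% lower. Of the called genes 47.2% were higher, and 59.2% with scaling by library size alone. The log2 fold change was 0.90 for HMOX1 (standard error 0.071, adjusted p = 5.2e-07), -0.74 for SRXN1 (standard error 0.068, adjusted p = 2.7e-06), -0.30 for TXNRD1 (standard error 0.068, adjusted p = 0.0048) and 0.31 for NFE2L2 (standard error 0.075, adjusted p = 0.0076). OSGIN1 was at -0.51 (standard error 0.17, adjusted p = 0.043). NQO1 at 0.07 (adjusted p = 0.66), GCLM at -0.24 (adjusted p = 0.11) and GCLC at 0.13 (adjusted p = 0.45) did not pass. The median over the 8 genes was -0.08, and over all genes 0.03.

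The OSGIN1 call with LPS was lost in 5 of the 6 fits that left out a library, all but the one without scramble_LPS replicate 1, with adjusted p from 0.064 to 0.17 and the smallest change, -0.37, without scramble_LPS replicate 2. It was also lost with scaling by library size alone (adjusted p = 0.089), whereas GCLM passed without scramble_LPS replicate 2 (-0.32, adjusted p = 0.032).

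**Figure D2:**
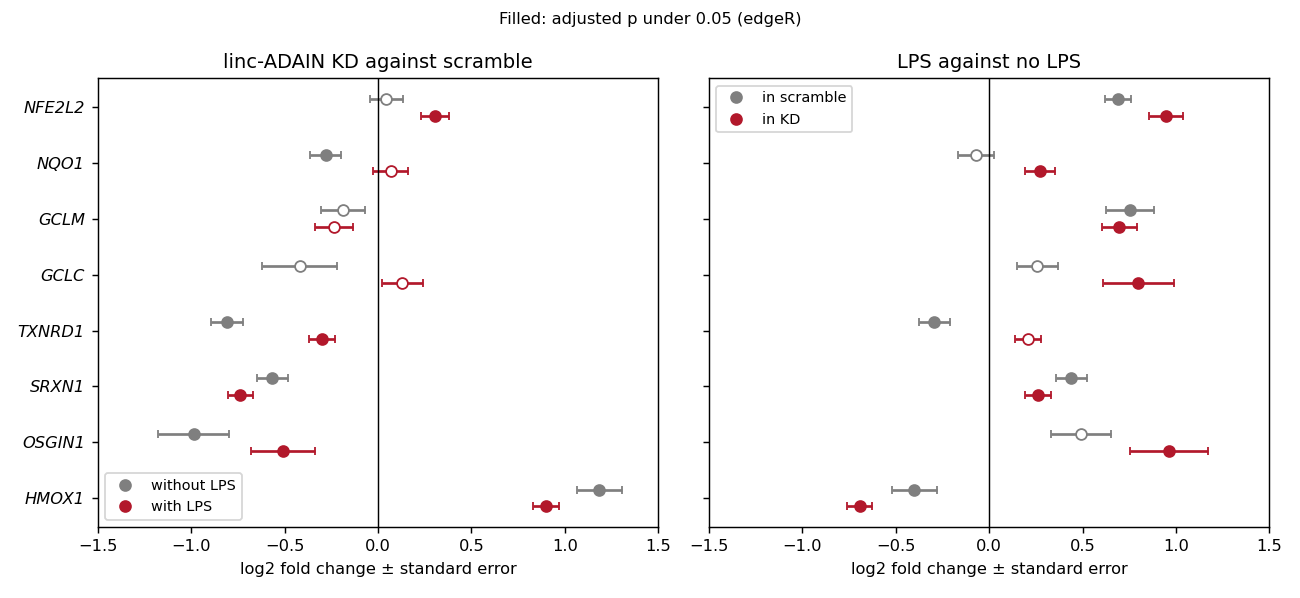
Log2 fold change with its standard error for the 8 genes, for KD against scramble (left, without and with LPS) and for LPS against no LPS (right, in scramble and in KD), from edgeR fits of 6 libraries each. Filled points had an adjusted p under 0.05. HMOX1 lies to the right of zero in both KD comparisons, at 1.18 and 0.90, and to the left in both LPS comparisons, at -0.40 and -0.69.

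The LPS comparisons asked how the genes answered 4 h of LPS in each arm. In scramble, LPS raised NFE2L2, GCLM and SRXN1 and lowered HMOX1 and TXNRD1. GCLM went from 58.1 ± 9.99 to 97.1 ± 13.7 CPM (SD, n = 3). By edgeR's test, 3 of the 8 genes were higher and 2 lower, beside 5.9% of 15920 genes higher and 8.38% lower. Of the called genes 41.3% were higher, and 32.7% with scaling by library size alone. The log2 fold change was 0.75 for GCLM (standard error 0.13, adjusted p = 0.0025), 0.69 for NFE2L2 (standard error 0.068, adjusted p = 4.1e-05) and 0.44 for SRXN1 (standard error 0.081, adjusted p = 0.0035). It was -0.40 for HMOX1 (standard error 0.12, adjusted p = 0.04) and -0.29 for TXNRD1 (standard error 0.082, adjusted p = 0.033). OSGIN1 at 0.49 (adjusted p = 0.061), GCLC at 0.26 (adjusted p = 0.14) and NQO1 at -0.07 (adjusted p = 0.72) did not pass. The median over the 8 genes was 0.35, and over all genes 0.02.

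Both calls of a fall in scramble were lost in 5 of the 6 fits that left out a library, which were all but the one without scramble replicate 3 for HMOX1 (adjusted p from 0.07 to 0.16) and all but the one without scramble_LPS replicate 1 for TXNRD1 (adjusted p from 0.058 to 0.1). OSGIN1 passed with DESeq2 (adjusted p = 0.039).

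In KD, LPS raised NFE2L2, GCLM, OSGIN1, GCLC, NQO1 and SRXN1 and lowered HMOX1. Of the 8 genes, 6 were higher and 1 lower by edgeR's test, beside 5.32% of 16169 genes higher and 6.03% lower. Of the called genes 46.9% were higher, and 35.2% with scaling by library size alone. NFE2L2 went from 125 to 240.0 CPM, or 0.94 on the log2 scale (standard error 0.091, adjusted p = 6.1e-06). OSGIN1 went from 3.77 to 7.30 ± 0.13 CPM, or 0.96 (standard error 0.21, adjusted p = 0.0073). GCLM at 0.70 (standard error 0.094, adjusted p = 0.00016) and GCLC at 0.80 (standard error 0.19, adjusted p = 0.014) rose as well. The GCLC value ran from 0.55 to 0.97 with single libraries left out, and KD replicate 1 was its lowest library. NQO1 at 0.27 (adjusted p = 0.042) and SRXN1 at 0.26 (adjusted p = 0.024) rose less. HMOX1 fell by 0.69 on the log2 scale (standard error 0.069, adjusted p = 8e-06). TXNRD1, at 0.21, did not pass (adjusted p = 0.071) although its groups did not overlap. The median over the 8 genes was 0.49, and over all genes 0.01.

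The rises of 3 genes depended on single libraries. NQO1 lost its call without KD replicate 1, KD replicate 2 or any 1 of the 3 KD_LPS libraries (adjusted p from 0.06 to 0.2), SRXN1 without KD replicate 1, KD replicate 3 or any 1 of the KD_LPS libraries (adjusted p from 0.059 to 0.092), and GCLC without KD_LPS replicate 2 or 3 (adjusted p = 0.059 and 0.068), while TXNRD1 passed with DESeq2 (adjusted p = 0.019).

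The comparisons share their groups, so the effect of KD with and without LPS was tested as an interaction over all 12 libraries. The KD effect differed for TXNRD1, which was lowered by 0.81 without LPS and by 0.30 with LPS on the log2 scale. By edgeR's test this difference was 0.51 (standard error 0.11, adjusted p = 0.020). Of the 8 genes, 1 was called higher in the interaction, beside 0.943% of 17173 genes higher and 0.332% lower. For the other 7 genes the difference ran from -0.28 for HMOX1 (adjusted p = 0.50) to 0.55 for GCLC (adjusted p = 0.42), and NQO1 at 0.35 had the smallest adjusted p of these, 0.26. The GCLC difference ran from 0.31 to 0.72 with single libraries left out. The TXNRD1 call was lost without scramble_LPS replicate 2 (0.48, adjusted p = 0.05 as rounded), KD replicate 1 (0.46, adjusted p = 0.069), KD_LPS replicate 2 (0.50, adjusted p = 0.058) or KD_LPS replicate 3 (0.51, adjusted p = 0.06).

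A ratio of 2 genes within a library does not depend on how libraries are scaled. HMOX1 and NQO1, both activated by NRF2 with HMOX1 also held down by BACH1, were chosen for this after their values were seen, so the ratio is a description. HMOX1 counts per NQO1 count were 2.64, 2.52 and 2.07 in scramble, 1.71, 2.01 and 2.11 in scramble with LPS, 7.69, 6.07 and 6.44 in KD, and 3.34, 3.65 and 3.29 in KD with LPS. All KD libraries lay above all scramble libraries, and in KD the ratio was lower with LPS. For the subunits of glutamate-cysteine ligase, GCLM counts per GCLC count were 2.64, 2.27 and 2.56 in scramble and 3.88, 3.43 and 3.27 in scramble with LPS. In KD they were 4.36, 2.67 and 2.47, and 3.18, 2.64 and 2.48 with LPS. The ratio was higher with LPS in every scramble library, whereas the KD groups overlapped and the value of 4.36 came from KD replicate 1.

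**Figure D3:**
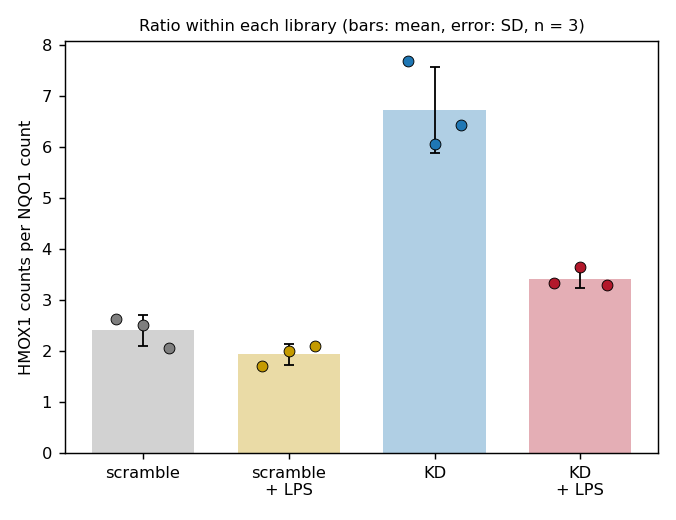
HMOX1 counts per NQO1 count (vertical axis, a ratio with no unit) in each of the 12 libraries. Points are libraries, bars the group means from 0 and error bars the SD with n = 3. The KD bars, at 6.73 ± 0.85 without LPS and 3.43 ± 0.19 with LPS, stand above the scramble bars, at 2.41 ± 0.30 and 1.94 ± 0.20.

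Genes that control NRF2 were read next. Of 11 control genes tested, 3 were higher and 2 lower in KD, beside 12.1% and 15.1% of all genes, with a median log2 fold change of 0.15. The number lower was near the share over all genes, and 6 were not called. KEAP1 was at 47.9 ± 2.22 CPM in scramble and 50.1 ± 3.21 CPM in KD (0.07, adjusted p = 0.61 by edgeR's test), and BACH1 at 68.5 ± 5.30 and 67.6 ± 4.12 CPM (-0.02, adjusted p = 0.92). CUL3, the scaffold of the ligase that degrades NRF2, fell from 99.2 ± 2.95 to 61.9 ± 13.3 CPM (-0.68, adjusted p = 0.0014). MAFG, a small MAF partner, rose by 0.47 (adjusted p = 0.0037), and SQSTM1, the autophagy adaptor that binds KEAP1, rose by 0.31 (adjusted p = 0.022). GSK3B, a kinase that marks NRF2 for degradation by another route, fell by 0.39 (adjusted p = 0.0026). With LPS in both arms, 4 were higher and 1 lower in KD, beside 12.7% and 14.2% of all genes, among them MAFK, another small MAF, at 0.73 (adjusted p = 0.0039). In scramble, LPS raised 2 of the 11 and lowered 2, beside 5.9% and 8.38% of all genes, and the largest changes were falls of MAFK (-0.85, adjusted p = 0.0018) and CUL3 (-0.49, adjusted p = 0.0039). In KD it raised 2, and 9 were not called, beside 5.32% of all genes higher and 6.03% lower. BACH1 rose with LPS in both arms, by 0.32 in scramble (adjusted p = 0.02) and 0.50 in KD (adjusted p = 0.0021).

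Other targets of NRF2, in lists chosen by function, were lower more often than higher in KD. The lists do not give whether NRF2 raises or lowers a gene, so the thioredoxin inhibitor TXNIP was counted like the rest. Of 45 tested without LPS, 25 were lower and 4 higher, beside 15.1% and 12.1% of all genes, with a median log2 fold change of -0.55 beside 0.02 over all genes, and of 44 tested with LPS, 25 were lower and 1 higher, beside 14.2% and 12.7%, with a median of -0.65. The 6 NADPH-producing genes were all lower in both comparisons. PGD, of the pentose phosphate pathway, went from 420 ± 74.3 to 156 ± 13.2 CPM (-1.42, adjusted p = 3.6e-06 by edgeR's test). TALDO1, of the same pathway, at -0.96 (adjusted p = 2.8e-06) and ME1, malic enzyme, at -0.68 (adjusted p = 0.00017) fell with it. These enzymes also feed lipid synthesis, and the adipocyte markers fell in the same libraries, 7 of 9 tested without LPS and 8 of 9 with LPS.

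The list named for carbonyl and xenobiotic metabolism was the lowest in KD. It also holds TRIM16L, which is annotated as a long noncoding RNA. Without LPS, 11 of 15 were lower and none higher, beside 15.1% and 12.1% of all genes. The median log2 fold change was -1.43, beside 0.02 over all genes. CES1, a carboxylesterase that is also abundant in adipocytes, went from 373 ± 144 to 34.7 ± 3.03 CPM (-3.42, adjusted p = 5.3e-07 by edgeR's test). AKR1B1, aldose reductase, fell from 483 ± 29.0 to 161 ± 6.45 CPM (-1.58, adjusted p = 9.8e-08). AKR1C2 at -1.58 (adjusted p = 1.7e-05) and TRIM16L at -2.03 (adjusted p = 3.2e-05) have close paralogs with which reads may be shared, so their values are uncertain.

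In the glutathione list, 6 of 12 genes were lower and 1 higher without LPS, beside 15.1% and 12.1% of all genes. The number higher was near the share over all genes. GSTM3, a glutathione transferase, fell by 1.15 on the log2 scale (adjusted p = 0.00024), ABCC3, a conjugate exporter, by 0.81 (adjusted p = 0.00025) and GSR, glutathione reductase, by 0.78 (adjusted p = 9.2e-05). GSS, glutathione synthetase, went the other way, from 8.91 ± 0.12 to 15.6 ± 0.66 CPM (0.81, adjusted p = 0.00036). In the thioredoxin list, 1 of 4 genes was lower, 1 higher and 2 not called, numbers near the shares over all genes. PRDX6, a peroxiredoxin, fell by 0.81 (adjusted p = 0.00026 by edgeR's test) and TXNIP, the inhibitor of thioredoxin, rose by 0.56 (adjusted p = 0.0013).

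Most heme and iron genes were not called in KD. Of 8 tested without LPS, 2 were higher, 1 lower and 5 not called, with a median of -0.02, and these counts were near the shares over all genes, 12.1% higher and 15.1% lower. SLC40A1, the iron exporter ferroportin, went from 4.92 ± 1.60 to 11.9 ± 1.96 CPM (1.28, adjusted p = 0.0012 by edgeR's test), which like HMOX1 was a rise of more than 2-fold. FTH1, the ferritin heavy chain, was at 4508 ± 223 and 5161 ± 94.6 CPM (0.20, adjusted p = 0.038). ABCB6, a porphyrin transporter, fell by 0.53 (adjusted p = 0.026). The ferritin genes have processed pseudogenes, so their counts may be shared with copies. With LPS in both arms, SLC40A1 stayed higher in KD (0.76, adjusted p = 0.006).

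With LPS in scramble 8 of 45 of these other targets rose and 3 fell, beside 5.9% of all genes higher and 8.38% lower. In KD 7 of 44 rose and 3 fell, beside 5.32% and 6.03%. The number that fell was near the share over all genes in both arms. CBR3, a carbonyl reductase, rose by 1.99 in scramble (adjusted p = 3.4e-06) and by 2.34 in KD (adjusted p = 1.1e-07). SLC7A11, the cystine importer that supplies glutathione synthesis, rose by 0.95 (adjusted p = 2e-04) and 0.91 (adjusted p = 0.00035), and FTH1 by 0.68 (adjusted p = 0.00013) and 0.54 (adjusted p = 2e-06). TXNIP fell by 0.66 in scramble (adjusted p = 0.0037) and by 0.92 in KD (adjusted p = 2.7e-06). For the interaction, edgeR's test called 0 of these 45 genes, 4 of which had an unadjusted p under 0.05.

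**Figure D4:**
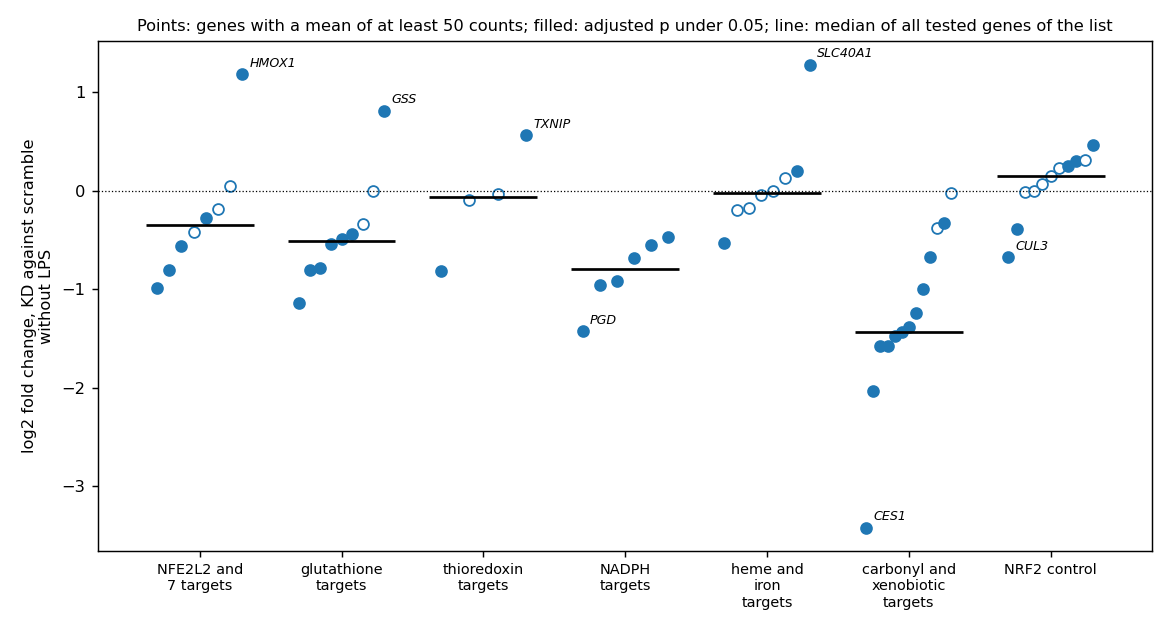
Log2 fold change of linc-ADAIN KD against scramble without LPS (vertical axis) for NFE2L2 and its 7 targets and for 6 further lists of the NRF2 pathway. Points are genes that averaged 50 counts or more, filled where the adjusted p was under 0.05, and lines are medians over all tested genes of a list. The NADPH genes lie below zero with a median of -0.80, and HMOX1 at 1.18 and SLC40A1 at 1.28 are the highest points of their lists.

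Among all 11811 genes that averaged 50 counts or more, those most like HMOX1 and OSGIN1, the 2 of the 8 genes that varied most between groups, were found by the root mean square difference of centred log2 CPM over the 12 libraries. For HMOX1 they were STAMBPL1 (0.14), PPP1R15A (0.19), a phosphatase subunit of the integrated stress response, and NPC1 (0.21), a lysosomal cholesterol transporter. PPP1R15A was at 90.8 CPM in scramble, 62.2 in scramble with LPS, 178 in KD and 143 in KD with LPS. For OSGIN1 they were TRAF3IP2 (0.13), an adaptor of the IL-17 receptor, RFFL (0.20) and HLX (0.21), a homeobox factor. Among the 8 genes the closest pairs were NQO1 with TXNRD1 (0.26), NFE2L2 with GCLM (0.26) and TXNRD1 with SRXN1 (0.27), and the farthest was OSGIN1 with HMOX1 (1.13).

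Markers of other cell types were read in the same libraries because HMOX1 is also abundant in macrophages. The summed level of 8 leukocyte and endothelial markers was 22.8 to 26.0 CPM in scramble and 65.7 to 95.5 CPM in KD, and with LPS 14.7 to 17.0 CPM and 61.5 to 87.7 CPM. CD163, a scavenger receptor of macrophages, made up most of the KD sum, at 4.33 ± 1.12 CPM in scramble and 68.6 ± 13.2 CPM in KD, and was the 1 of 6 tested markers that was higher without LPS. VWF, an endothelial marker, was lower, at 9.67 ± 1.42 and 2.21 ± 0.40 CPM (-2.12, adjusted p = 1.4e-05 by edgeR's test), and the other 4 were not called. With LPS, 2 of 7 were higher, CD163 and CD14, and 2 lower, PECAM1 and VWF. CD14 was higher by 2.69 on the log2 scale (adjusted p = 0.0014 by edgeR's test). Its counts were low, 9 to 15 in scramble with LPS and 63 to 89 in KD with LPS. Of all genes tested, 12.1% were higher and 15.1% lower in KD without LPS, and 12.7% and 14.2% with LPS. The counts of these markers without LPS, 1 of 6 in each direction, were near those shares. PTPRC, which encodes the leukocyte antigen CD45, was at 0 to 12 counts in every library. The summed level of 8 stromal markers was 7315 to 7790 CPM in scramble and 6360 to 7158 CPM in KD, with VIM as its largest part. Within this sum 3 of 7 tested markers were lower without LPS, THY1 (-2.37, adjusted p = 8.2e-08), ENG (-1.36, adjusted p = 6e-06) and PDGFRB (-0.90, adjusted p = 5e-06), and 2 were higher, COL1A1 (0.66, adjusted p = 0.0073) and PDGFRA (0.26, adjusted p = 0.02). Of 9 adipocyte markers, PPARG (-0.87, adjusted p = 0.0023 by edgeR's test) and FABP4 (-1.65, adjusted p = 0.00071) were among the 7 that were lower in KD without LPS, and CEBPA and LPL did not pass. The part of these markers in the levels of NRF2 targets was not tested.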

How the data were processed

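RNA-seq libraries (stranded, poly-A) came from 12 samples in 4 groups. Per the labels, reads were converted with bcl2fastq 2.19 and quantified with kallisto 0.44.0 against human transcripts of GRCh38. The authors deposited estimated counts summed per gene name, not normalized for library size or length. The annotation release behind the index is not given in the sources used here. Counts without a gene name, 0.235% to 0.306% of each library, were left out.

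The deposited estimated counts were taken as whole numbers, and a gene needed a sum of 10 counts to enter a fit. In R 4.3.3, TMM scaling and the quasi-likelihood F test came from edgeR 4.0.16. P-values were adjusted by Benjamini-Hochberg over all genes. Fits were made on the 6 libraries of each of 4 comparisons and on all 12 for the interaction. A gene was called at an adjusted p under 0.05. The standard error is the log2 fold change divided by the square root of F. The steps were tested on simulated data, where the allowed share of false calls was raised after the first run had exceeded it, and a check of p-values of unchanged genes was added then. The alternatives were DESeq2 1.42.0, other scalings and filters, 1 fit of all groups, a block for the replicate number and fits that left out single libraries.

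Totals were 48.1 to 53.8 M (units of 1e6) in scramble, 31.5 to 44.5 in scramble with LPS, 33.4 to 50.5 in KD and 28.4 to 45.3 in KD with LPS. Positions are from GENCODE release 44 on GRCh38, promoter sequences from RefSeq. All 8 genes were named. KEAP1 and BACH1 were always named, and of the other lists up to 4 called genes with the largest changes in KD without LPS and up to 2 in each other comparison, with a mean of at least 50 counts. Some genes that this rule takes are not reported here by name. PPARG, FABP4, CEBPA, LPL, CD163, CD14, PTPRC, PECAM1, VWF and the stromal markers were named from the marker lists after their values were seen. The genes, lists and rules were chosen with earlier results of these data known.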

Additional observations from a re-analysis of the deposited data

Results flagged for a closer look

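The effect of linc-ADAIN KD on TXNRD1 differed with and without LPS by the test of the difference itself. The log2 fold change was -0.81 without LPS and -0.30 with LPS, and the interaction over 12 libraries was 0.51 (standard error 0.11, adjusted p = 0.020 by edgeR's test). It ran from 0.45 to 0.56 with single libraries left out, with adjusted p from 0.024 to 0.069.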

How the results depend on the processing

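Of 40 results for the 8 genes (5 tests each), 25 kept their direction and their side of the threshold under every alternative. Outside the fits that left out a library, no result changed direction, 6 combinations of a result and a setting lost a call and 4 gained one. The directions that turned when single libraries were left out belonged to values near zero that were not called. These were NFE2L2 in KD without LPS (-0.0174 to 0.1345), NQO1 in KD with LPS (-0.0014 to 0.18), NQO1 with LPS in scramble (-0.18 to 0.0017) and GCLM in the interaction (-0.1595 to 0.0836). The cause was not tested.

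With single libraries left out, 3 to 4 of the 8 genes were called with LPS in scramble (5 with all libraries), 4 to 6 with LPS in KD (7) and 0 to 1 in the interaction (1). In the 4 interaction fits with 0 called by edgeR, 2 to 4 of the 8 genes had an unadjusted p under 0.05. Over all genes, 1187 to 2106 were called with LPS in scramble (2274 with all libraries) and 92 to 243 in the interaction (219), where DESeq2 called 475 and edgeR without a filter on low counts 431.

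With the replicate number as a block, NQO1 in KD without LPS was not called (-0.28, adjusted p = 0.064), and OSGIN1 with LPS in scramble (0.49, adjusted p = 0.022) and TXNRD1 with LPS in KD (0.21, adjusted p = 0.047) were. The block changed no other call of the 8 genes. Of 18 same-numbered pairs, 4 had a correlation of their deviations over 0.1 (-0.13 to 0.22), beside -0.16 to 0.16 for libraries with different numbers. The highest, 0.22, joined replicate 1 of scramble with and without LPS. In 4 of 18 matches of a library with another group was the same number the closest. Over all genes, the block called 3260 with LPS in scramble (2274 without it) and 3857 in KD without LPS (4411). With 3 libraries per group this cannot decide whether the numbers pair the samples. NQO1 and SRXN1 with LPS in KD lost their calls with scaling by library size alone (adjusted p = 0.11 and 0.077), and NQO1 also with all 12 libraries in the fit (adjusted p = 0.064). OSGIN1, at 3.12 to 12.4 CPM, was the least abundant of the 8 genes and had some of the largest standard errors.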
